A study of Mus musculus with 5 samples.

Results

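The genes described here encode the machinery of nonsense-mediated decay and of cytoplasmic RNA granules: UPF and SMG decay factors, the FMRP family, Pumilio 2 and Musashi 2, decapping and decay enzymes, stress granule proteins, poly(A)-binding and stabilising proteins, and Argonaute 2. They were chosen by symbol from a list of 30 genes. Of these, 29 were found among the 11194 genes counted, and Igf2bp3 was not analysed here. The counts come from immunoprecipitates made with a rabbit antibody against Staufen1, a protein that binds double-stranded RNA, from mouse skeletal muscle stem cells. 3 libraries, here wild type 1 to 3, came from Stau+/+ mice, and 2, here knockout 1 and 2, from Stau-/- mice. The series design places these cells in quiescence. The labels name no drug or injury in either group. They do not say which part of the gene was removed, how old the mice were, or whether each library had its own mouse, so p-values measure only the spread between these libraries, which may be technical. All 5 libraries were immunoprecipitates, and no input RNA was analysed here. A count therefore joins how much of a transcript the cells held with how well the antibody recovered it.

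Nonsense-mediated decay removes mRNAs whose translation stops early. The helicase UPF1 is its core, UPF2 and UPF3 proteins activate UPF1, the kinase SMG1 phosphorylates it, and SMG5, SMG6 and PNRC2 connect it to RNA cleavage, deadenylation and decapping. Staufen1 can also recruit UPF1 to mRNAs that it binds, a route known as Staufen-mediated decay. Processing bodies gather repressed mRNAs with decapping enzymes, whereas stress granules form around G3BP proteins when translation initiation stalls. Muscle stem cells rely on such control after transcription to keep mRNAs of the myogenic programme silent. The values below are those of the mRNAs that encode these proteins, not of the proteins themselves.

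Library totals ran from 33846391 to 105473455 counts in wild type and were 9370244 and 3091302 in knockout 1 and 2, all below the shallowest wild type library. Levels are given as CPM, a gene's count on a common library scale set with TMM factors, which offset differences in composition. No loss of Stau1 RNA was detectable in libraries labelled knockout, at 109.9 ± 1.19 CPM (SD, n = 2) against 116.4 ± 11.4 CPM (SD, n = 3), so each direction below rests on the labels (log2 fold change 0.084, edgeR adjusted p = 0.847). All 8 muscle stem cell markers looked up, Pax7 among them, were measured, with a summed level of 3891 to 4377 CPM in wild type and 2589 to 2733 CPM in knockout. Of these 8, edgeR called 1, Sdc4 (2016 against 1052 CPM, adjusted p = 0.0251), whereas Pax7 had 238.7 ± 26.1 against 216.2 ± 50.2 CPM (edgeR adjusted p = 0.748). All 8 estimates were higher in wild type, 6 of them without overlap of the libraries, against 20.4% of all genes. In edgeR 5 had an unadjusted p under 0.05, against 10.4% of all genes higher in wild type. Markers of other cells differed between the groups too: 10 of 10 endothelial markers were measured and summed to 1309 to 1745 CPM against 2865 to 3120 CPM, and 6 of 7 muscle fibre markers to 410.2 to 496.0 CPM in wild type against 334.3 CPM in knockout 1 and 2118 CPM in knockout 2. For fibro-adipogenic cells 6 of 6 summed to 1864 to 2725 against 1342 to 1405 CPM (Col1a1 and Col3a1 called higher in wild type, Ly6a in knockout), for red blood cells 4 of 5 to 215.5 to 295.1 against 471.3 to 805.2 CPM, for glia 4 of 4 to 139.4 to 180.4 against 278.0 to 327.9 CPM, for pericytes and smooth muscle 5 of 5 to 782.9 to 1005 against 1062 to 1204 CPM, and for macrophages 5 of 6 to 219.6 to 333.1 against 342.3 to 361.9 CPM, where 0 of the 5 macrophage genes were called by edgeR and 0 had an unadjusted p under 0.05. Higher in knockout, edgeR called 6 of the 10 endothelial, 3 of the 4 red blood cell, 1 muscle fibre and 1 glia marker. All 10 endothelial markers lay higher in knockout without overlap, against 18.1% of all genes. None of the measured markers was at 0 in any library. Their part in the values below was not tested, and in such bulk RNA fewer cells of a type and less RNA per cell cannot be told apart.

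No decay or granule factor transcript passed the test between the genotypes, and most differences were small beside the spread of the libraries. With edgeR's quasi-likelihood test and an adjusted p of 0.05 as the threshold, 0 of the 29 members tested were called, where 2.05% of all genes were called (1.05% higher in wild type, 1.00% in knockout). At an unadjusted p under 0.05, 2 members were higher in wild type (Elavl1 and Tia1) and 0 in knockout, against 10.4% and 9.99% of all genes. DESeq2 called 1 member, Elavl1, and limma-voom 0. Over all 11194 genes DESeq2 called 433 higher in wild type and 457 in knockout, and limma-voom 8 and 14. The median log2 fold change, wild type over knockout, was -0.0072 over the members and 0.0032 over all genes tested. Positive values belonged to 13 members and negative values to 16, from -0.61 for Upf3b to 0.72 for Elavl1. The wild type libraries all lay above the knockout libraries for 6 members and all below for 5, against 20.4% and 18.1% of all genes, and the groups overlapped for 18. Summed over the members, the libraries held 3369, 3097 and 3117 CPM in wild type 1 to 3 and 3073 and 3008 CPM in knockout 1 and 2.

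**Figure D1:**
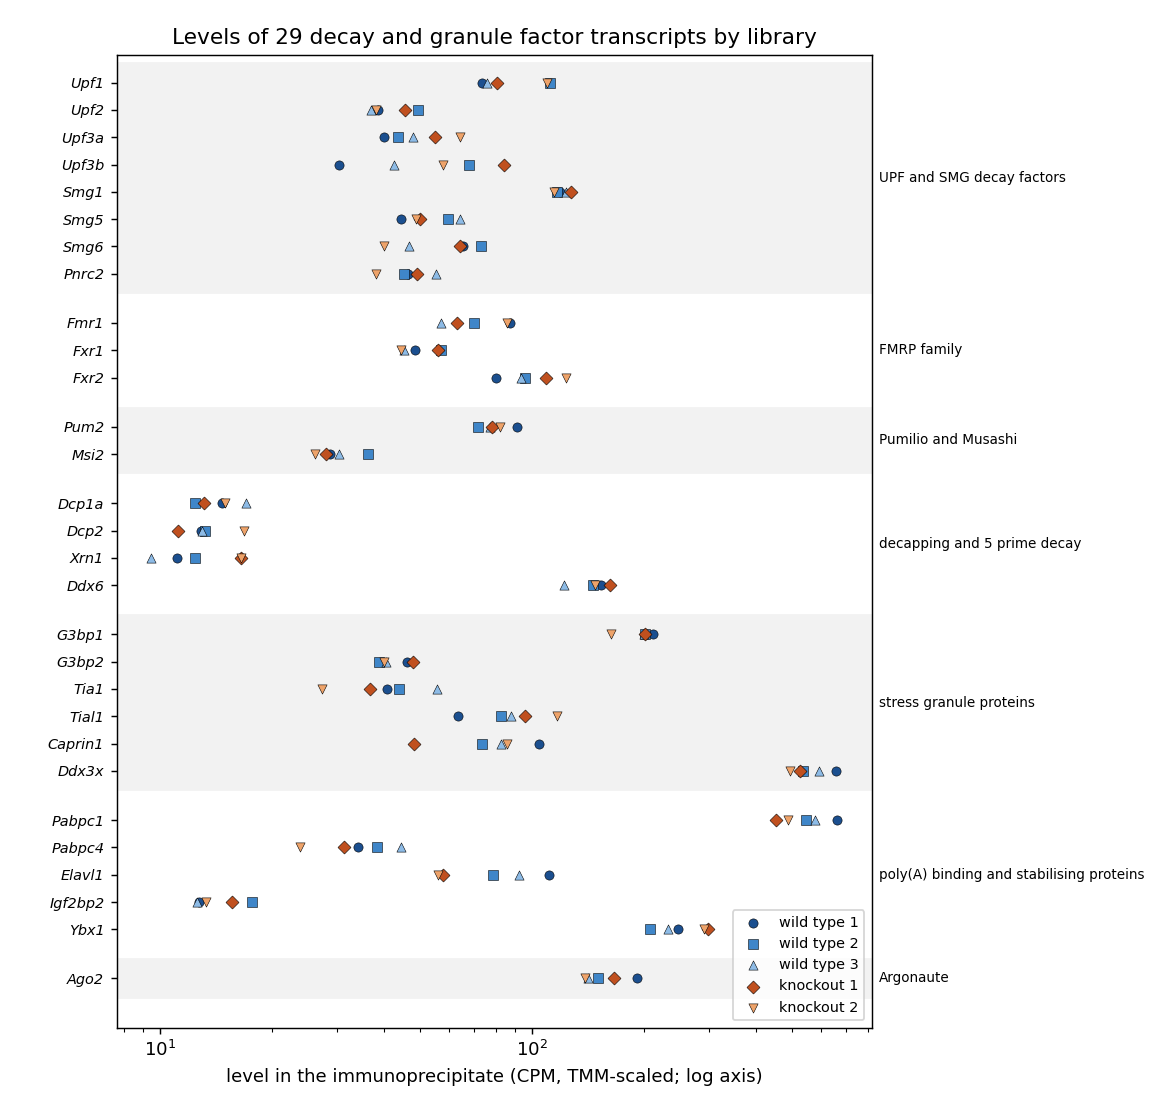
Level of each of the 29 transcripts in each library, in TMM-scaled CPM on a log axis, grouped by role; each point is 1 library. Points of the groups overlap for 18 of the 29 genes, and Ddx3x and Pabpc1 lie highest in every library.

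The intervals of these differences show how large a change could have gone unseen. The 95% interval of the log2 fold change lay inside -1 to 1, a 2-fold difference either way, for 24 of the 29 members. It reached past 1 on the wild type side for 3 members (Elavl1, Tia1 and Pabpc4) and past -1 on the knockout side for 2 (Upf3b and Xrn1). The margin on either side of the estimate ran from 0.38 to 0.74, with a median of 0.49. Counts were ample for most members. The lowest was 42, for Igf2bp2 in knockout 2, and 7 members had under 100 counts in that library. Exact 95% Poisson intervals, which cover counting error only, lay apart between knockout 1 and 2 for 8 of the 29 members, and between wild type 1 and 2 for 24. Such intervals are wider in shallower libraries, as both knockout libraries were. These counts therefore do not compare how well replicates agreed in each group.

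**Figure D2:**
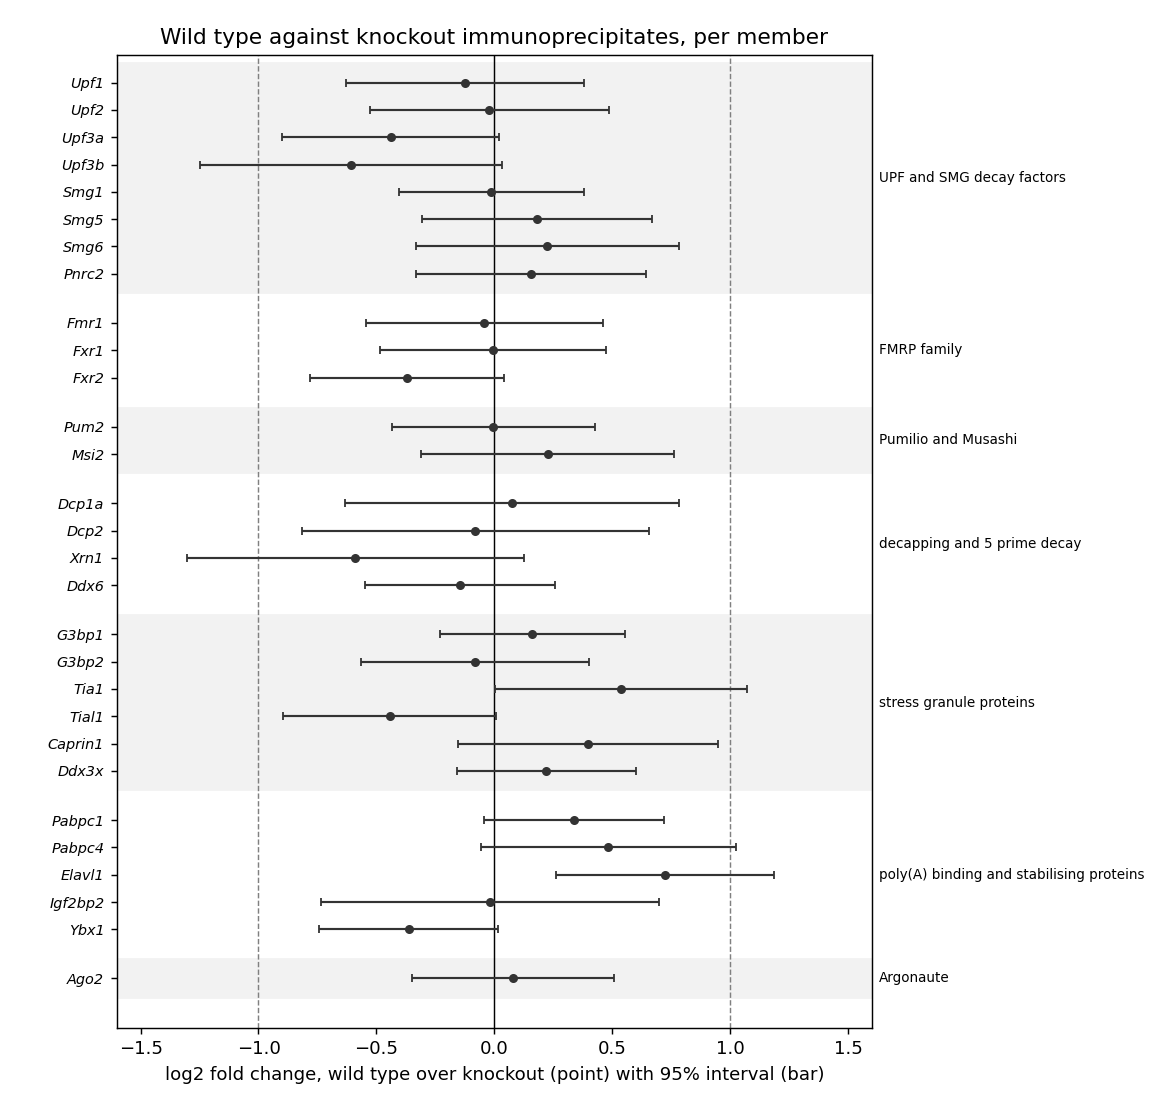
Log2 fold change of each member, wild type over knockout (points), with its 95% interval from edgeR's quasi-likelihood fit (bars); dashed lines mark -1 and 1. Intervals of 24 members lie between the dashed lines, and those of Elavl1 and Tia1 lie above 0.

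None of the UPF and SMG decay factors passed the test. Of the 8 members, 0 were called in either direction by edgeR, DESeq2 or limma-voom, and 0 had an unadjusted p under 0.05. Their median log2 fold change was -0.017. Upf1, the helicase at the core of the pathway, lies on the minus strand of chromosome 8 (70331522 to 70353273, mm10). It had 73.5, 112.2 and 75.8 CPM in wild type 1 to 3 and 80.7 and 110.1 CPM in knockout 1 and 2. Wild type 2 and knockout 2 were the high libraries, so the spread within each group was larger than the difference between the groups. The log2 fold change of Upf1 was -0.12, with a 95% interval of -0.63 to 0.38 (edgeR adjusted p = 0.817). Upf2, the scaffold that joins UPF1 to UPF3 proteins, had 38.6, 49.4 and 36.9 CPM against 45.8 and 38.2 CPM. Its fold change was -0.020 on the log2 scale, with an interval of -0.53 to 0.49.

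The UPF3 paralogs gave the lowest values of this subgroup. Upf3a (chromosome 8, 13785615 to 13798538, plus strand, mm10) had 40.0, 43.7 and 47.8 CPM in wild type and 55.0 and 64.3 CPM in knockout, and the groups did not overlap. Its log2 fold change of -0.44 (SE 0.21) did not pass the test (edgeR adjusted p = 0.268). Upf3b, the stronger activator of decay, lies on the minus strand of chromosome X (37091678 to 37110322, mm10). It had 30.3, 68.0 and 42.6 CPM in wild type and 84.0 and 57.9 CPM in knockout. Wild type 2 lay above knockout 2, so the groups overlapped. The log2 difference was -0.61 (SE 0.30, edgeR adjusted p = 0.270) and moved from -0.97 (without wild type 2) to -0.30 (without knockout 1). The count ratio of Upf3b to Upf3a was 0.758, 1.56 and 0.891 in wild type 1 to 3 and 1.53 and 0.901 in knockout 1 and 2, so it varied as much within a group as between them.

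Of the SMG transcripts, Smg1 varied least. Smg1, the kinase that phosphorylates UPF1, had 119.3, 117.1 and 124.0 CPM in wild type and 127.6 and 114.5 CPM in knockout. Its log2 fold change was -0.013 with an interval of -0.40 to 0.38. Smg5, an adaptor for phosphorylated UPF1, had 44.6, 59.6 and 64.1 against 50.0 and 49.0 CPM (log2 fold change 0.18). Smg6, the endonuclease that cuts targets near the stop codon, had 65.3, 73.0 and 46.7 against 64.1 and 40.1 CPM. Its log2 fold change of 0.23 became 0.62 without knockout 1 and -0.06 without knockout 2, and 126 bases of its exons are shared with Srr on the other strand. Pnrc2, which bridges UPF1 to the decapping complex, had 46.5, 45.3 and 55.2 against 49.2 and 38.2 CPM (log2 fold change 0.15). In the mean log2 level of all 8 genes, wild type 2 (0.14, centred on the mean of the group means) and knockout 1 (0.13) were high, and wild type 1 (-0.20), wild type 3 (-0.068) and knockout 2 (-0.043) were low. Wild type 2 was the shallowest and wild type 1 the deepest of the wild type libraries; the part of depth in this order was not tested.

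**Figure D3:**
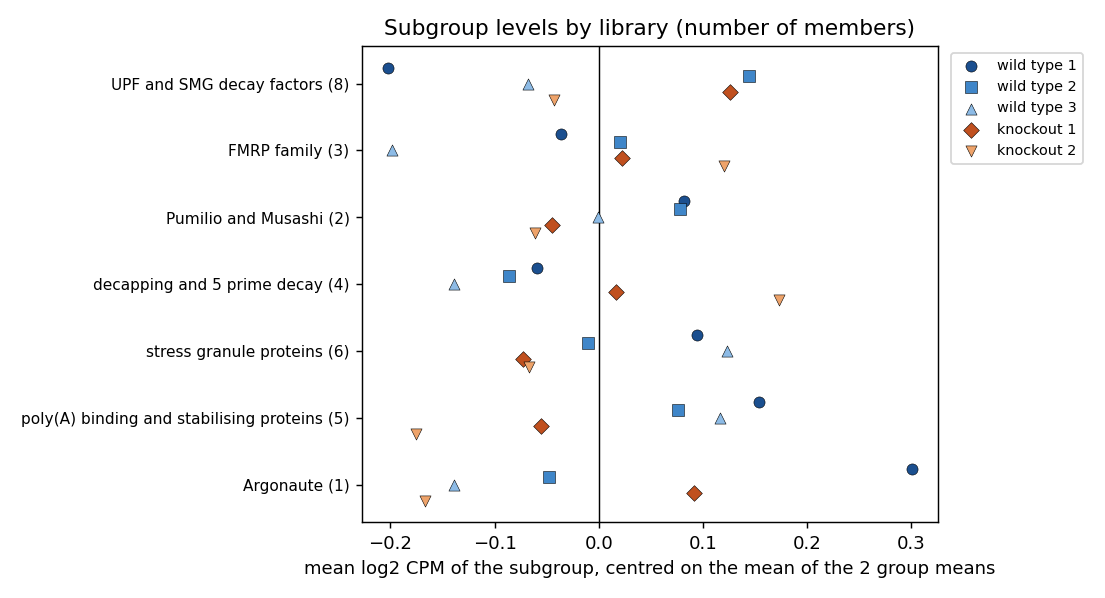
Mean log2 CPM of each subgroup in each library, centred on the mean of the group means; each point is 1 library and the number of members stands in parentheses. For the UPF and SMG factors the groups interleave, with wild type 2 at 0.14 and knockout 1 at 0.13. For the poly(A)-binding and stabilising proteins wild type lies at 0.076 to 0.15 and knockout at -0.18 to -0.056. Wild type also lies above knockout for the stress granule and the Pumilio and Musashi subgroups. It lies below knockout for the decapping subgroup and the FMRP family, in the latter by as little as 0.021 against 0.022.

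The FMRP family showed no called member either. FMRP and its autosomal relatives are RNA-binding proteins that repress translation and join granules, and Fxr1 is prominent in muscle. Fmr1 had 87.6, 69.9 and 57.2 CPM in wild type and 62.8 and 85.6 CPM in knockout, with the highest and the lowest library both in the wild type group. Fxr1 had 48.6, 57.0 and 45.3 against 55.9 and 44.5 CPM, and 178 bases of its exons are shared with Dnajc19 on the other strand. The log2 fold changes of Fmr1 and Fxr1 were -0.042 and -0.0072, with intervals of -0.54 to 0.46 and -0.49 to 0.47. Fxr2 had 80.1, 96.2 and 93.9 CPM against 109.4 and 123.7 CPM, so both knockout libraries lay above all wild type libraries. Its log2 fold change of -0.37 (SE 0.19) did not pass the test (edgeR adjusted p = 0.300). The family had a median of -0.042, and edgeR, DESeq2 and limma-voom each called 0 of 3, with 0 at an unadjusted p under 0.05.

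Pum2, a Pumilio protein that recruits deadenylases to mRNAs with its binding motif, had 91.2, 71.9 and 77.1 CPM in wild type and 78.3 and 82.4 CPM in knockout. Msi2, a Musashi protein that controls translation in stem cells, had 28.7, 36.3 and 30.3 against 28.1 and 26.1 CPM. All wild type values of Msi2 exceeded both knockout values, by as little as 28.7 against 28.1 CPM. The log2 fold changes were -0.0039 for Pum2 (edgeR adjusted p = 0.994) and 0.23 for Msi2 (edgeR adjusted p = 0.662).

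Among the decapping and decay genes, the transcript of the exonuclease had the largest difference. Xrn1, which degrades decapped mRNA from its 5′ end, had 11.1, 12.4 and 9.50 CPM in wild type and 16.5 and 16.5 CPM in knockout (chromosome 9, 95954760 to 96053027, plus strand, mm10). The groups did not overlap, and the log2 fold change was -0.59 (SE 0.33), which did not pass the test (edgeR adjusted p = 0.342). Its knockout values rest on 158 and 52 counts. Dcp2, the decapping enzyme, had 12.9, 13.2 and 13.0 against 11.2 and 16.9 CPM. Dcp1a, its activator, had 14.7, 12.5 and 17.1 against 13.2 and 15.0 CPM. Neither gene separated the groups, and their log2 fold changes were -0.081 for Dcp2 and 0.075 for Dcp1a. Ddx6, the helicase that binds decapping factors in processing bodies, had 153.1, 146.1 and 122.3 against 162.5 and 147.6 CPM. Its log2 fold change was -0.14, with an interval of -0.55 to 0.26. The subgroup had a median of -0.11, and edgeR, DESeq2 and limma-voom each called 0 of 4, with 0 at an unadjusted p under 0.05.

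Stress granule genes had log2 fold changes of either sign, and none passed the test. G3bp1, the protein that nucleates stress granules, had 211.6, 201.3 and 200.4 CPM in wild type and 201.2 and 163.5 CPM in knockout. G3bp2 had 46.1, 38.8 and 40.6 against 48.1 and 40.1 CPM. Knockout 2 was the low library for G3bp1, and the groups overlapped for both genes, whose log2 fold changes were 0.16 and -0.082. Caprin1, a partner of G3BP1, had 104.6, 73.6 and 82.6 against 48.4 and 85.6 CPM. Its knockout libraries disagreed, so the log2 fold change of 0.40 (edgeR adjusted p = 0.417) was 0.023 without knockout 1 and 0.85 without knockout 2. Ddx3x, an X-linked DEAD-box helicase of translation initiation, had 655.9, 534.7 and 590.0 against 524.6 and 493.7 CPM. Its lowest wild type value was close to the higher knockout value, and the log2 fold change was 0.22 (edgeR adjusted p = 0.522).

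The paralogs Tia1 and Tial1, RNA-binding proteins with aggregation-prone ends that drive granule assembly, had opposite signs. Tia1 (chromosome 6, 86404219 to 86433403, plus strand, mm10) had 40.9, 44.1 and 55.7 CPM in wild type and 36.7 and 27.4 CPM in knockout. Tial1, on the minus strand of chromosome 7 (128439777 to 128461717, mm10), had 63.3, 82.5 and 88.2 CPM in wild type and 96.0 and 116.8 CPM in knockout. The groups did not overlap for either gene. Neither passed the edgeR test: the log2 fold change was 0.54 for Tia1 (SE 0.25, unadjusted p = 0.0485, adjusted p = 0.241) and -0.44 for Tial1 (SE 0.21, unadjusted p = 0.0535, adjusted p = 0.251). The count ratio of Tial1 to Tia1, which no library scaling affects, was 1.55, 1.87 and 1.58 in wild type 1 to 3 and 2.62 and 4.27 in knockout 1 and 2. Knockout 2 alone gave 86 counts of Tia1, so its ratio is the least precise. Over the stress granule subgroup, 1 of 6 was higher in wild type at an unadjusted p under 0.05, against 10.4% of all genes. For these 6, edgeR, DESeq2 and limma-voom each called 0, and the median was 0.19.

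Ratios between related members were compared for 8 pairs, with an exact two-sided permutation test over libraries. With 3 against 2 libraries the smallest p that this test can give is 0.1. It was reached for Tial1 to Tia1, where the log2 ratio in wild type minus that in knockout was -1.01, and for G3bp1 to G3bp2, where it was 0.25; after Benjamini-Hochberg adjustment over the 8 pairs both exact permutation p-values were 0.4. The G3bp1 to G3bp2 ratio was 4.59, 5.18 and 4.94 in wild type and 4.19 and 4.08 in knockout. For Ddx3x to Ddx6 the exact permutation p was 0.2 (adjusted 0.533), with ratios of 4.28, 3.66 and 4.83 against 3.23 and 3.34. Fxr2 to Fxr1 had ratios of 1.65, 1.69 and 2.07 against 1.96 and 2.78, which overlap. The other 4 pairs (Upf3b to Upf3a, Fxr1 and Fxr2 to Fmr1, Pabpc1 to Pabpc4) overlapped as well, with exact permutation p-values of 0.4 to 0.9.

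**Figure D4:**
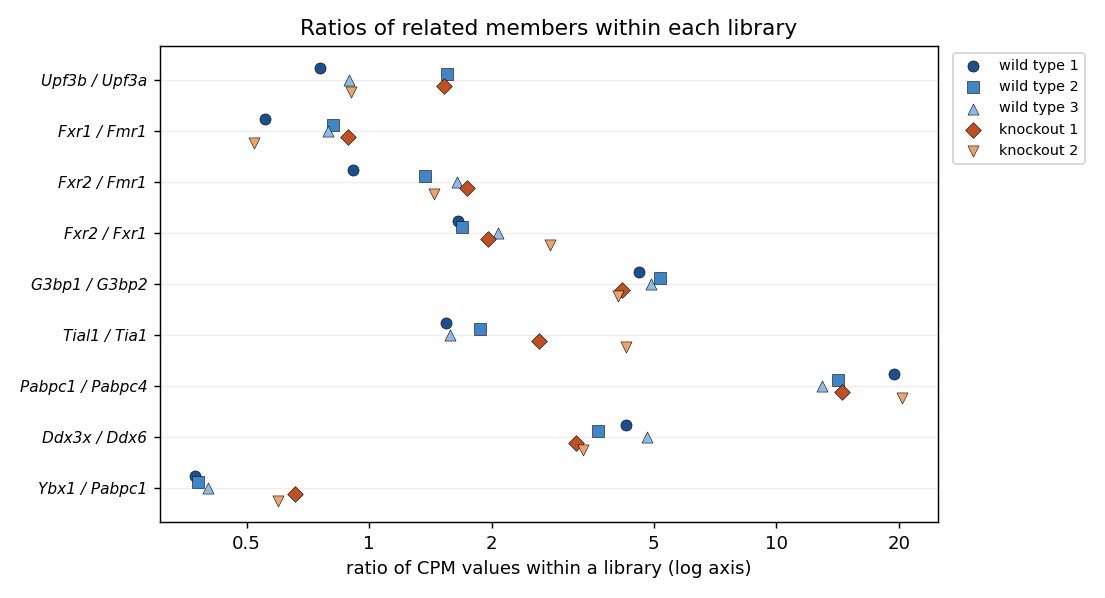
Ratio of the CPM values of related members within each library, on a log axis; each point is 1 library. Tial1 to Tia1 lies at 1.55 to 1.87 in wild type and at 2.62 and 4.27 in knockout, and Ybx1 to Pabpc1 (chosen after its values were seen) at 0.374 to 0.402 and at 0.657 and 0.596.

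The poly(A)-binding and stabilising proteins held the member with the smallest p. Elavl1 encodes HuR, which binds AU-rich elements and stabilises mRNAs, Myod1 mRNA among its targets in muscle cells. Elavl1 lies on chromosome 8 (minus strand, 4284782 to 4325100, mm10) and had 111.0, 78.8 and 92.5 CPM in wild type 1 to 3 and 57.9 and 56.0 CPM in knockout 1 and 2. All wild type libraries lay above both knockout libraries, a 1.65-fold difference of means, 94.1 ± 16.2 against 57.0 ± 1.36 CPM (SD, n = 3 and 2). On the log2 scale this was 0.72 (SE 0.22), with a 95% interval of 0.26 to 1.19, an unadjusted p of 0.00464 and an edgeR adjusted p of 0.0854. Elavl1 therefore failed the correction over all genes in edgeR, whereas DESeq2 gave an adjusted p of 0.0344. Over the other alternatives the adjusted p ran from 0.0612, without wild type 2, to 0.352 with limma-voom, and the log2 fold change over all alternatives from 0.58 to 0.84.

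Pabpc1, the main cytoplasmic poly(A)-binding protein, had 662.8, 545.2 and 577.0 CPM in wild type and 454.0 and 487.4 CPM in knockout. Pabpc4, its inducible relative, had 34.0, 38.3 and 44.5 against 31.3 and 23.9 CPM. Both genes separated the groups, with log2 fold changes of 0.34 (SE 0.18) and 0.48 (SE 0.25), and neither passed the edgeR test (adjusted p = 0.307 and 0.302). Igf2bp2, an m6A reader that stabilises mRNAs and is expressed in muscle progenitors, was among the lowest members, with 12.8, 17.8 and 12.6 against 15.6 and 13.4 CPM (log2 fold change -0.020). Ybx1, a cold shock protein that packages mRNA, had the opposite sign (chromosome 4, 119277981 to 119294604, minus strand, mm10). It had 247.9, 207.4 and 232.0 CPM against 298.5 and 290.4 CPM. Both knockout libraries of Ybx1 lay above all wild type libraries, with a log2 difference of -0.36 (SE 0.18, edgeR adjusted p = 0.267). RefSeq lists a pseudogene named after Ybx1, so its reads may be split between copies. Of the 5 members tested in this subgroup, 3 lay higher in wild type without overlap and 1 higher in knockout (20.4% and 18.1% of all genes). The median was 0.34, and edgeR and limma-voom called 0, DESeq2 1. At an unadjusted p under 0.05, 1 was higher in wild type, against 10.4% of all genes.

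Ago2, the Argonaute that carries microRNAs to their targets, had 192.3, 151.0 and 141.8 CPM in wild type and 166.3 and 139.0 CPM in knockout. The groups overlapped, and the log2 fold change was 0.080 with an interval of -0.35 to 0.51. Its exons share 219 bases with Chrac1 on the other strand.

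Levels of different genes were compared per kilobase of the gene length in the deposited table. Ddx3x, Pabpc1 and Ybx1 stood well above the other members, at 112.5 ± 11.5, 103.2 ± 10.5 and 90.5 ± 8.05 CPM per kilobase in wild type (SD, n = 3), which placed them above 93.7% of all genes or more. The next was Upf3a, at 31.3 ± 2.80 CPM per kilobase, followed by G3bp1 at 28.9 ± 0.878. Dcp2, Xrn1, Igf2bp2 and Dcp1a were lowest, at 1.51, 2.0, 2.02 and 2.62 CPM per kilobase, below every UPF and SMG transcript, of which Smg1 was the lowest at 5.66. Ddx6, the partner of decapping factors in processing bodies, stood at 23.2. The places of Smg1 and Upf3a rest on the division by length. In CPM, Smg1 was the highest of the UPF and SMG transcripts, at 120.1 in wild type. Upf3a had 43.8 CPM in wild type, below G3bp1 at 204.4 CPM. In knockout the order of the upper 3 differed, with Ybx1 at 116.3 ± 2.24, Ddx3x at 96.5 ± 4.13 and Pabpc1 at 81.6 ± 4.09 CPM per kilobase (SD, n = 2). Ybx1 held rank 3 in 3 of 3 wild type libraries and rank 1 in 2 of 2 knockout libraries. This rank 1 also rests on the division by length. In CPM, Ybx1 had 294.5 in knockout, below Ddx3x at 509.1 and Pabpc1 at 470.7. The count ratio of Ybx1 to Pabpc1 was 0.374, 0.381 and 0.402 in wild type 1 to 3 and 0.657 and 0.596 in knockout 1 and 2; this pair was chosen after its values were seen, and is given with no test.

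The other genes of these pathways were followed in 7 lists of 108 genes, of which 99 were tested. edgeR called 1 of them higher in wild type and 0 in knockout, where 1.05% and 1.00% of all genes were called. At an unadjusted p under 0.05 there were 12 and 8, against 10.4% and 9.99% of all genes. The median log2 fold change was -0.028. The called gene was Sqstm1, the autophagy receptor p62 that also takes up granule proteins, with 2711, 1994 and 2413 CPM in wild type and 1368 and 1376 CPM in knockout. The log2 difference was 0.79 (SE 0.19, edgeR adjusted p = 0.0473), and all wild type libraries exceeded both knockout libraries. RefSeq places the protein-coding gene Mrnip across part of Sqstm1. This call did not hold without wild type 1 (adjusted p = 0.141), wild type 3 (0.147), knockout 1 (0.108) or knockout 2 (0.132), with limma-voom (0.101), with each other library scaling (0.0509 to 0.0574) and after thinning to equal depth (0.0521). It held with DESeq2 (adjusted p = 0.00218), with a stricter filter of at least 10 counts in every library (0.0378) and without wild type 2 (0.0199).

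Among 20 granule partners, Sqstm1 was the 1 call, 19 passed neither way and the median was 0.033; Hdac6, a deacetylase needed for stress granules, had a log2 fold change of -0.78 (edgeR adjusted p = 0.0839). The 18 deadenylation genes had a median of 0.097 and 0 calls, with 4 higher in wild type and 2 in knockout at an unadjusted p under 0.05. Over all genes 10.4% and 9.99% had such p-values, the shares to set beside the counts of each list. Btg1, an antiproliferative protein that recruits the CCR4-NOT deadenylase, had 938.9, 718.3 and 947.0 against 560.2 and 452.0 CPM, a log2 fold change of 0.78 that did not pass (edgeR adjusted p = 0.0551). 1 deadenylation gene was called higher in wild type with at least 10 counts required in every library and without wild type 2. Its relative Btg2 had 0.57 (edgeR adjusted p = 0.124). In the termination list, with 0 of 10 called, a median of 0.016 and 2 and 1 at an unadjusted p under 0.05, the release factor Gspt1 had 0.75 and the helicase Mov10 -1.05 (edgeR adjusted p = 0.0881 and 0.113). The exon junction complex had 0 calls among 11 genes, with a median of -0.15 and 2 and 0 at an unadjusted p under 0.05; the cap-binding Ncbp1 had 0.61 and Rnps1 0.44 (edgeR adjusted p = 0.184 and 0.200).

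None of the microRNA effectors was called, although most values were below 0. Of 9 genes, 8 had a negative log2 fold change, where 5567 of all 11194 genes did. The list's median was -0.40, against 0.0032 over all genes. Ago2, a member and so not in this list, had 0.080. For the 9 genes, edgeR, DESeq2 and limma-voom each called 0. At an unadjusted p under 0.05, 1 was higher in knockout, against 9.99% of all genes. Ago3 had 46.6, 59.5 and 53.6 CPM in wild type against 69.0 and 79.5 CPM in knockout, and Tarbp2, the Dicer partner, 21.0, 37.3 and 25.7 against 45.1 and 38.5 CPM. Both separated the groups, with log2 fold changes of -0.48 and -0.59 (edgeR adjusted p = 0.216 and 0.246). Decapping cofactors and LSM proteins, 17 genes with a median of -0.29, had 12 negative values, 0 calls by any of these 3 tools and 0 and 1 at an unadjusted p under 0.05; the nuclear exonuclease Xrn2 and Lsm7 had -0.46 and -0.45 (edgeR adjusted p = 0.227 and 0.262). The 14 RNA-binding paralogs had a median of 0.052, 0 calls, and 1 and 1 at an unadjusted p under 0.05. Msi1, the relative of Msi2, had 2.90, 5.29 and 2.18 CPM in wild type against 14.8 and 8.59 CPM in knockout, a log2 difference of -1.79 (SE 0.51) that did not pass the test (edgeR adjusted p = 0.0753). Hnrnpd, which binds AU-rich elements, had 0.49 (edgeR adjusted p = 0.180). DESeq2 called 1 gene higher in wild type among the deadenylation genes, 1 in each direction among the termination factors, 1 higher in wild type (Sqstm1) and 2 higher in knockout among the granule partners, and 1 higher in knockout among the paralogs, where limma-voom called 0 in every list. Of all 11194 genes, DESeq2 called 433 higher in wild type and 457 in knockout, and limma-voom only 8 and 14.

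**Figure D5:**
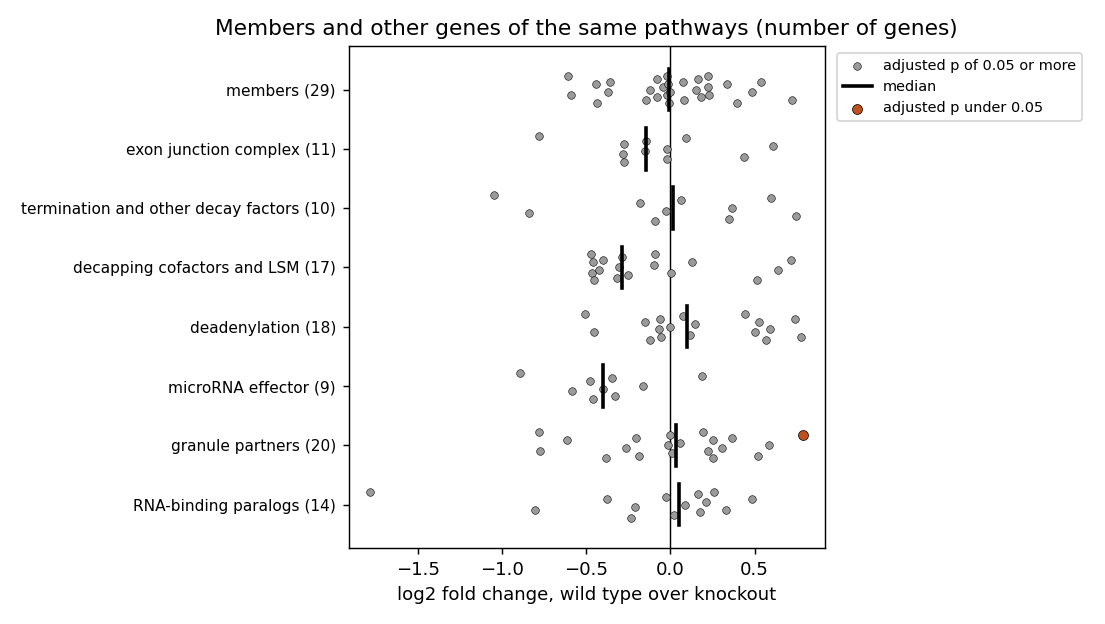
Log2 fold change, wild type over knockout, of each member and of each gene of the 7 pathway lists (points), with the list's median (bars) and the number of genes in parentheses; points are spread vertically for legibility only. Sqstm1, among the granule partners, is the single gene past the adjusted threshold, and the microRNA effectors have a median of -0.40.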

How the data were processed

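The deposited file gives raw, whole-number counts for 11194 genes in the 5 libraries, with gene lengths and coordinates. The submitters' processing notes name Trim Galore, STAR, featureCounts (Subread) and edgeR, and the genome mm10. Their versions, the gene annotation's release and whether strand was used: not given in the sources used here. Counts of overlapping genes on opposite strands are therefore uncertain. RefSeq places a protein-coding gene across part of 6 of the members (Upf1, Smg6, Fxr1, Dcp1a, G3bp2 and Caprin1), and 3 (Smg6, Fxr1 and Ago2) share exon bases with another counted gene. Genes of low expression have no row, so totals cover the kept genes. Per the labels' protocols, RNA was primed with oligo(dT) and amplified, and no molecular identifiers are named.

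The counts were tested with edgeR 4.0.16 in R 4.3.3: filterByExpr (which removed 0 genes), TMM, and a quasi-likelihood test of genotype (two-sided) over all genes, with p-values adjusted by Benjamini-Hochberg and called under 0.05. Intervals use 14 degrees of freedom. Members were matched by symbol, and all 29 matched RefSeq by Entrez identifier. Alternatives used DESeq2 1.42.0, limma 3.58.1, other scalings, filters, thinning, each library left out, and the replicate number as a block. All members, every called pathway gene and the 2 smallest p of each list are named. Members and lists were chosen with earlier results of these data known. The fit was checked on simulated data. Lists were described by counts and medians, with no set test.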

Additional observations from a re-analysis of the deposited data

How the results depend on the processing

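Of the 29 members, 28 were called under none of the 14 alternatives. Elavl1 was called by DESeq2 alone, which made the count of members called higher in wild type 1. The sign held under all alternatives for 16 members; Smg6 (0.62 without knockout 1) turned to -0.057 without knockout 2, and G3bp2 to 0.19 after thinning every library to the shallowest. The median over the members, -0.0072, was -0.052 with total counts, 0.032 with limma-voom, 0.039 after thinning and 0.051 with the replicate number as a block (replicate block), and ran from -0.0067 to 0.069 with 1 library left out. Subgroup medians with 1 library left out ran from -0.22 to -0.025 for decapping, -0.26 to 0.054 for the FMRP family, 0.25 to 0.40 for poly(A)-binding and stabilising proteins and 0.10 to 0.23 for stress granule proteins. The FMRP median was 0.067 with the replicate block, and that of Pumilio and Musashi 0.068 with total counts and 0.21 after thinning. Without division by length, Ybx1 held rank 3 of the members in knockout in place of rank 1. Ratios within a library do not depend on scaling.

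Over all genes, 118 and 112 were called higher in wild type and knockout. The counts were 433 and 457 with DESeq2, 8 and 14 with limma-voom, and 288 and 324 with the replicate block. They were 21 and 40 without wild type 1, 176 and 172 without wild type 2, and 11 and 23 without wild type 3. The causes were not tested. Whether the shared replicate numbers pair the samples could not be told. Deviations of same-numbered libraries correlated at 0.050 and 0.040 over genes. With 2 knockout libraries, the deviations of one mirror those of the other, so such values cannot exclude pairing. The block called no member; in the pathway lists it called 1 deadenylation gene and 1 termination factor higher in wild type, where the fit without it called 0, kept the Sqstm1 call (adjusted p = 0.0315) and called 2 granule partners higher in knockout. Depth limits the members of few counts, such as Xrn1 and Igf2bp2, in knockout 2.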
